A study of Mus musculus with 6 samples.

Results

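The genes described here are 40 transcripts of the MYC network and of ribosome biogenesis, taken by symbol from the 28476 genes of the deposited expression table. Of these, 5 belong to the MYC network (Myc, Mycn, Max, Mxd1 and Mxd4) and 35 encode nucleolar proteins that make ribosomes. All 40 symbols were found once each, and 39 had a mean of at least 0.5 FPKM (fragments per kilobase of transcript, scaled to the size of the library, which is a level per transcript length) over the 6 libraries and were tested; Mycn was not. RNA was measured in livers of C57BL/6 mice that were fasted overnight and given 300 mg/kg acetaminophen (APAP) by intraperitoneal injection 24 h before collection. The controls carried the Flox genotype and the other group the Nedd4 HepKO genotype (HepKO below), with 3 libraries each, and both groups had received the drug, so that no value here is an untreated level. The labels name no Cre driver, age or sex. Nothing in them ties a library to a single animal, and the p-values therefore cover a spread that may be technical. Nedd4 encodes a ubiquitin ligase, and the series title asks how it bears on acetaminophen liver injury.

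MYC is a transcription factor that pairs with MAX and binds the DNA sequence CACGTG, the E-box. MXD and MNT proteins pair with MAX as well and repress many of the same genes. Genes for ribosome assembly are among the best known MYC targets: RNA polymerase I copies the ribosomal RNA precursor in the nucleolus, small nucleolar ribonucleoproteins modify it, and large sets of factors cut and fold it into the small and the large subunit. In liver, Myc is known to be switched on early after injury or partial hepatectomy.

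RefSeq promoters (GRCm38.p6, 250 bases before to 50 bases after a start) were matched to 34 of the 40 genes, with 37 starts. Myc was among the 6 genes without a match, so its promoter was not searched. The sequence CACGTG reads the same on both strands. It was found in the promoters of 7 of these 34 genes (20.6%), against 8.09% of the 27025 genes in the RefSeq table. That table also holds genes that were not tested here. Of the tested genes matched to a RefSeq promoter, 1069 held CACGTG and 7822 did not, a larger share than over the whole RefSeq table. The shares were not compared by a test. Among the ribosome biogenesis genes alone, 5 of 30 (16.7%) held CACGTG, and the others with a match were Max and Mxd4. The related CATGTG, searched on both strands, was found in 6 of the 34 genes (17.6%) and in 15.9% of all genes. A match is a description of letters and not a binding site. The 7 CACGTG matches are shown in 30 bases each, with CACGTG in capitals, read 5′ to 3′ on the strand of the gene. The E-box is centred in all but Utp20, where the searched promoter ended and fewer bases follow it. Distances from the start are given after the sequences.
Max, chr12:76962234-76962263, minus strand: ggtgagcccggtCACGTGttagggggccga
Mxd4, chr5:34187912-34187941, minus strand: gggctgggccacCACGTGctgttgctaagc
Nop2, chr6:125131811-125131840, plus strand: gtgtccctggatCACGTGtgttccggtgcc
Pes1, chr11:3963965-3963994, plus strand: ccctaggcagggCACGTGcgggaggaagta
Utp20, chr10:88826765-88826794, minus strand: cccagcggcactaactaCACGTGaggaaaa
Utp4, chr8:106893643-106893672, plus strand: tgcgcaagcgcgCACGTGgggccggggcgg
Wdr43, chr17:71616220-71616249, plus strand: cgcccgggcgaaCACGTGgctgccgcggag

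The E-box began 219 bases before the start in Mxd4, 60 bases before it in Nop2 and 3 bases before it in Max. In Pes1, Utp4, Wdr43 and Utp20 it began at base 3, 16, 18 and 38 counted from the start. None of these 7 genes passed the test described next. By that test, 8.7% of the 1069 tested genes with CACGTG and 9.1% of the 7822 without it were called higher. Of the 39 tested genes 3 passed, all higher in HepKO, where 9.33% of all tested genes were called higher. For those of them in the RefSeq table, the 250 bases before the start are shown: Mxd1 and Ncl, in lower case because neither holds CACGTG there, and Mxd4 with its E-box in capitals for comparison.
Mxd1, chr6:86669160-86669409, minus strand: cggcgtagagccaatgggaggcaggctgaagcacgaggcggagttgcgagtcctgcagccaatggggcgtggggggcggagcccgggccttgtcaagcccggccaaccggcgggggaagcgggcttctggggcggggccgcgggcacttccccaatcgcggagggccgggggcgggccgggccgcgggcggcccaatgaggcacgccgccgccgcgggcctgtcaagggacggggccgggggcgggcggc
Mxd4, chr5:34187711-34187960, minus strand: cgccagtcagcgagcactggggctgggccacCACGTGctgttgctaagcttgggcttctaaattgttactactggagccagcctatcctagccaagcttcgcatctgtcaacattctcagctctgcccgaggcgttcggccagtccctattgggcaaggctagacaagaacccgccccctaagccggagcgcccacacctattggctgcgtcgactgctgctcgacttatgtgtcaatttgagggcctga
Ncl, chr1:86359456-86359705, minus strand: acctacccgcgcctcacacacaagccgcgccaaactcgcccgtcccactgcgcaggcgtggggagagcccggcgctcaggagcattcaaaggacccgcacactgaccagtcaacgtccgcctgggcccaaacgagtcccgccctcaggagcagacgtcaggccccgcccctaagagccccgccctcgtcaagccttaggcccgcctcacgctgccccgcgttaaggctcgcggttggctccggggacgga

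Libraries were compared on deposited FPKM, and their depth is unknown. Each summed to between 456176 and 496303 FPKM. HepKO replicate 1 stood apart by its mitochondrial transcripts, which took 24.6% of its FPKM against 16.7% to 18.3% in the other 5 libraries. Values without it are given for some of the results below. Nedd4, the targeted gene, read 2.18, 2.59 and 2.23 FPKM in Flox and 0.618, 0.666 and 0.565 FPKM in HepKO libraries (log2 fold change -1.04, SE 0.10, limma adjusted p = 0.0015). Of the hepatocyte markers, all 10 were present, with summed levels of 38278 to 44609 FPKM in Flox and 42923 to 47897 FPKM in HepKO libraries. Over all genes, limma tested 12712 on log2(FPKM + 1) with a threshold of adjusted p 0.05. Libraries were also rescaled in 3 ways: by median ratios to a common reference, to equal totals over all genes (full-total), and to equal totals leaving out the 50 most abundant and the mitochondrial genes (trimmed-total). Fewer cells of a type and less RNA per cell cannot be told apart in whole liver.

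Myc rose 6.98-fold in HepKO livers, and of the ribosome biogenesis genes nearly all did not pass. Myc stood 33rd of the 12712 tested genes by log2 fold change. Of the 35 biogenesis genes, 1 rose (Ncl), 0 fell and 34 did not pass. After median-ratio rescaling 7 were called higher, beside 11.3% of all tested genes. In each of the 6 fits without 1 library 0 were called higher, beside 5.29% to 8.12% of all tested genes. Across all tested genes 9.33% were called higher and 11.0% lower, and 35.7% had an unadjusted p under 0.05 in either direction (14.8% higher). The counts of calls and the counts by unadjusted p below are to be read against these shares. The median log2 fold change of the 35 genes was 0.04, beside -0.06 over all tested genes. That median had no stable sign. It was 0.13 after median-ratio, 0.10 after trimmed-total and -0.02 after full-total rescaling. It was 0.10 without HepKO replicate 1, 0.08 without Flox replicate 2 and 0.09 without Flox replicate 3. Without Flox replicate 1 it was 0.02, and without HepKO replicate 3 it was -0.0085. The median over all tested genes moved as well, to -0.10 after full-total rescaling. In every fit the median of the 35 genes lay above that of all tested genes in the same fit. The gap ran from 0.04 (no filter) to 0.15 (without Flox replicate 2) and was not tested.

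Myc (ENSMUSG00000022346, chromosome 15, 61985391 to 61990350, GRCm38) was measured at 8.09, 4.38 and 4.04 FPKM in Flox replicates 1 to 3 and at 42.7, 39.1 and 33.4 FPKM in HepKO replicates 1 to 3. Every HepKO library lay above every Flox library, and the lowest HepKO value was several times the highest Flox value. Group means were 5.50 ± 2.25 and 38.4 ± 4.70 FPKM (SD, n = 3), a 6.98-fold difference. The log2 fold change was 2.64 (SE 0.24, 95% interval 2.08 to 3.21, limma adjusted p = 0.0012). Flox replicate 1 held about double the Myc of the other Flox libraries, and without it the ratio of means was 9.12. Leaving out any other library gave ratios between 6.16 and 7.43, and Myc passed in all 15 alternative fits, with adjusted p between 0.0010 and 0.0096.

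Of the MYC partner and the repressors in the network, Mxd1 passed; differences between these genes were not tested. Max, the shared partner, read 8.68, 8.50 and 8.88 FPKM in Flox and 9.73, 9.01 and 9.57 FPKM in HepKO libraries. The groups did not overlap, but the log2 fold change of 0.11 (95% interval -0.11 to 0.32) did not pass (limma adjusted p = 0.43). Mxd1, a MAX-binding repressor (ENSMUSG00000001156, chromosome 6, 86647042 to 86669161), rose from 0.79, 1.22 and 0.684 FPKM to 2.67, 3.08 and 1.49 FPKM, which is 2.69-fold (log2 fold change 0.83, SE 0.21, limma adjusted p = 0.036). Each HepKO value of Mxd1 was above each Flox value, with HepKO replicate 3 closest to the controls. This call held in 1 of 6 fits that left out a library, the one without HepKO replicate 3, where the log2 fold change was 1.04 and adjusted p = 0.013; in the other 5 the adjusted p lay between 0.058 and 0.11. It was also lost when no filter on low values was applied (adjusted p = 0.093).

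Mxd4, another MXD repressor, read 3.08, 4.40 and 2.91 FPKM in Flox and 5.01, 2.52 and 2.26 FPKM in HepKO libraries. The groups overlapped, and HepKO replicate 1 was the highest of all 6 while the other 2 HepKO libraries were the lowest (log2 fold change -0.11, 95% interval -0.72 to 0.50, limma adjusted p = 0.80). Mycn, the MYC paralog known from developing tissue, stayed between 0.0168 and 0.227 FPKM in every library and was not tested. In Flox libraries Max was the most abundant of the 5 by mean FPKM, with 8.69 ± 0.19 against 5.50 ± 2.25 for Myc (SD, n = 3), although Flox replicate 1 had nearly equal levels of both. In HepKO libraries Myc was the most abundant, at 38.4 ± 4.70 against 9.43 ± 0.38 for Max.

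**Figure D1:**
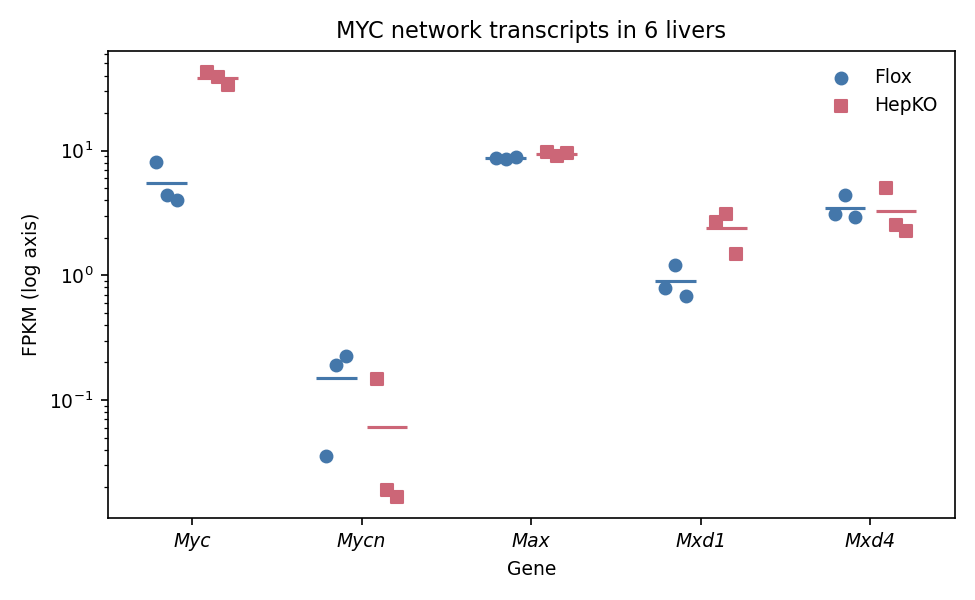
FPKM (log axis) of the 5 MYC network genes in each library; circles are Flox and squares HepKO libraries, drawn in replicate order, and lines are group means. Myc lies at 4.04 to 8.09 FPKM in Flox and 33.4 to 42.7 FPKM in HepKO libraries, Max differs little, Mxd1 is higher in HepKO, and Mxd4 and Mycn overlap.

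Among 8 other genes of the MYC, MAX and MLX network, 6 were tested, 1 rose and 2 fell, with a median log2 fold change of 0.19. Mnt, a MAX-binding repressor, rose from 4.19 to 7.70 FPKM (log2 fold change 0.75, limma adjusted p = 0.014; 0.052 without Flox replicate 2). Mlxipl, which encodes the carbohydrate response factor ChREBP and was the most abundant of the 8, fell from 20.3 to 12.2 FPKM (log2 fold change -0.69, adjusted p = 0.016), a call that held in 3 of 6 fits without 1 library and was lost with the replicate block (adjusted p = 0.060). Its partner Mlx fell from 16.7 to 12.8 FPKM (log2 fold change -0.36, adjusted p = 0.039), called in 1 of 6 such fits and lost under median-ratio rescaling (0.070), trimmed-total rescaling (0.063) and the replicate block (0.095). Of 12 ubiquitin ligases and deubiquitinases known to act on MYC protein, 9 were tested, 0 rose, and 1 fell: Huwe1, a HECT ligase, went from 10.4 to 7.30 FPKM (log2 fold change -0.46, limma adjusted p = 0.036, called in 1 of 6 fits without 1 library; lost without a filter, with the replicate block and after trimmed-total rescaling, with adjusted p from 0.050 to 0.061). By unadjusted p under 0.05, 2 of these 9 passed, beside 35.7% of all tested genes. The most abundant of them, the ligase Stub1, read 34.4 FPKM in Flox and 28.2 FPKM in HepKO libraries (adjusted p = 0.087).

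The large subunit makes up the biggest group of members, 12 assembly factors, and none of them passed (limma); 1 had an unadjusted p under 0.05. The group's median log2 fold change was -0.02. Rrp1, its most abundant member and a nucleolar factor of early large subunit assembly, read 19.6, 22.8 and 22.3 FPKM in Flox and 24.0, 25.5 and 26.8 FPKM in HepKO libraries (log2 fold change 0.23, 95% interval -0.02 to 0.48, adjusted p = 0.17). Its groups did not overlap, but the gap was no wider than the range within each group. The PeBoW complex joins Pes1, Bop1 and Wdr12 and is needed to process the precursor of the large subunit RNA. Pes1 had means of 17.6 FPKM in both groups (log2 fold change -0.00055, 95% interval -0.25 to 0.25), and Bop1 had 11.1 and 11.6 FPKM in Flox and HepKO libraries (log2 fold change 0.06). Wdr12, the least abundant of the 3, had 2.00 and 1.53 FPKM (log2 fold change -0.25, adjusted p = 0.25). None of the 3 subunits passed, and the differences between them were not tested.

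Noc2l, a nucleolar factor of pre-60S particles, had the highest log2 fold change of the large subunit group, 0.30, with 11.2, 11.9 and 13.1 FPKM in Flox and 14.8, 14.7 and 15.8 FPKM in HepKO libraries (adjusted p = 0.079). It passed only where libraries were rescaled: adjusted p = 0.026 after median-ratio and 0.048 after trimmed-total rescaling. Mrto4, which helps build the stalk of the large subunit, had the lowest log2 fold change of all 35, -0.31, with 8.79, 10.1 and 9.71 FPKM in Flox and 5.66, 8.65 and 8.47 FPKM in HepKO libraries (adjusted p = 0.22). HepKO replicate 1 set that size: without it the log2 fold change was -0.14. Nop16 read 22.7 and 19.1 FPKM in Flox and HepKO libraries (log2 fold change -0.24, adjusted p = 0.18), with no overlap and HepKO lower. Nop2, an RNA methyltransferase of the large subunit RNA, read 13.3 FPKM in both groups (log2 fold change 0.0056). Rrs1, Rrp15, Nip7 and Ppan had log2 fold changes between -0.13 and 0.11.

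Of the 10 small subunit factors 0 passed (limma; 1 by unadjusted p under 0.05), and their log2 fold changes ran from -0.27 to 0.29 around a median of 0.02. Nop14, the most abundant, read 9.25, 11.1 and 11.0 FPKM in Flox and 12.4, 11.5 and 10.8 FPKM in HepKO libraries, which overlap (log2 fold change 0.14, adjusted p = 0.42). The UTP-A complex binds the precursor first, and 5 of its genes are members: Utp4, Wdr43, Heatr1, Utp15 and Wdr75. Utp4 read 7.00, 7.53 and 8.35 FPKM in Flox and 9.26, 9.46 and 9.95 FPKM in HepKO libraries (log2 fold change 0.29, adjusted p = 0.086, and 0.030 after median-ratio rescaling). Heatr1 (0.25) and Wdr43 (0.23) also had positive log2 fold changes with no overlap between groups, and neither passed; Utp15 had -0.10 and Wdr75 -0.16. Utp20, a scaffold of the processome, had the lowest of the group, with 2.57, 2.75 and 2.82 FPKM in Flox and 1.88, 1.77 and 2.68 FPKM in HepKO libraries (log2 fold change -0.27, adjusted p = 0.20). Bysl, which is required for late small subunit maturation, read 6.68 and 5.79 FPKM (log2 fold change -0.17, no overlap, HepKO lower). Rrp9, the U3 particle protein, and Rrp12, an export factor, had 0.19 and -0.11. On the opposite strand Heatr1 (mean 3.62 FPKM) overlaps Lgals8 (24.3 FPKM), and Rrp9 (4.91 FPKM) overlaps Parp3 (9.98 FPKM). No source used here says if reads were assigned by strand, so the levels of Heatr1 and Rrp9 are uncertain.

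The proteins that guide RNA methylation, in box C/D particles, had the highest median of the ribosome role groups: a log2 fold change of 0.50 over 3 genes, with 0 calls (limma) and 2 genes with an unadjusted p under 0.05 (35.7% of all tested genes). Fbl, the methyltransferase itself (fibrillarin) and the most abundant of the 3, read 12.8, 11.95 and 11.9 FPKM in Flox and 12.4, 13.9 and 16.3 FPKM in HepKO libraries, which overlap (log2 fold change 0.19, adjusted p = 0.29). Its core partners did not pass either. Nop56 had 6.76, 9.77 and 11.1 FPKM in Flox and 12.4, 13.4 and 17.7 FPKM in HepKO libraries (1.57-fold, log2 fold change 0.61, 95% interval 0.12 to 1.10, adjusted p = 0.079). Nop58 had 3.14, 3.83 and 3.95 FPKM in Flox and 4.47, 5.15 and 7.36 FPKM in HepKO libraries (1.56-fold, log2 fold change 0.50, 95% interval 0.08 to 0.92, adjusted p = 0.090). In both genes Flox replicate 1 was the lowest and HepKO replicate 3 the highest of 6, and no library of one group entered the range of the other. Median-ratio rescaling called both (adjusted p = 0.038 for Nop56 and 0.040 for Nop58), and the replicate block called Nop56 (0.045). In the authors' deposited table their q-values are 0.0107 and 0.0102. Nop56 overlaps Idh3b on the opposite strand, which had a mean of 34.96 FPKM, and no source used here says if reads were assigned by strand.

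In box H/ACA particles, which guide pseudouridylation, 0 of 3 members passed (limma; 1 by unadjusted p under 0.05). Nhp2, the most abundant, read 47.7, 45.8 and 53.4 FPKM in Flox and 45.9, 51.4 and 53.5 FPKM in HepKO libraries (log2 fold change 0.04, 95% interval -0.22 to 0.30). Dkc1, the pseudouridine synthase dyskerin, had means of 3.76 and 3.71 FPKM (log2 fold change -0.02). It overlaps Mpp1 (mean 9.92 FPKM) on the opposite strand, so its level is uncertain if reads were not assigned by strand. Gar1 had 7.94, 8.27 and 10.4 FPKM in Flox and 10.1, 14.5 and 12.8 FPKM in HepKO libraries (log2 fold change 0.44, adjusted p = 0.10, and 0.043 after median-ratio rescaling). The 3 subunits of one particle therefore had values from near 0 to 0.44. The differences between them were not tested.

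Of 5 abundant nucleolar proteins that organise the compartment, 1 rose. Ncl encodes nucleolin, which binds the ribosomal RNA precursor (ENSMUSG00000026234, chromosome 1, 86344719 to 86359400). It rose from 33.9, 34.2 and 36.7 FPKM in Flox to 43.9, 44.0 and 48.7 FPKM in HepKO libraries (1.303-fold, log2 fold change 0.37, SE 0.10, limma adjusted p = 0.038). The groups were well apart, but the call was lost in all 6 fits without 1 library (adjusted p 0.058 to 0.12), with the replicate block (0.082) and after full-total rescaling (0.10); in the authors' deposited table its q-value is 0.0660. Npm1, the nucleolar chaperone nucleophosmin and the most abundant of the 35, read 59.8, 69.6 and 79.95 FPKM in Flox and 96.8, 89.5 and 94.1 FPKM in HepKO libraries (log2 fold change 0.43, 95% interval 0.12 to 0.73, adjusted p = 0.057). It passed under 2 rescalings (0.029 after median-ratio and 0.048 after trimmed-total rescaling), and the authors' deposited table gives a q-value of 0.0499. Ddx21, an RNA helicase, and Gnl3, nucleostemin, had log2 fold changes of 0.20 and 0.12, and Nolc1, a snoRNP chaperone, had -0.04. Npm1 has processed pseudogenes, so its level is uncertain where reads could be shared.

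RNA polymerase I was represented by its 2 large subunits. Polr1b, the more abundant, read 2.89, 3.98 and 3.51 FPKM in Flox and 3.02, 2.96 and 3.62 FPKM in HepKO libraries (log2 fold change -0.08, 95% interval -0.39 to 0.23, limma adjusted p = 0.69). Polr1a read 1.68, 2.26 and 2.41 FPKM in Flox and 1.98, 2.03 and 2.00 FPKM in HepKO libraries (log2 fold change -0.05, adjusted p = 0.82). In both genes the HepKO values lay inside the Flox range.

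**Figure D2:**
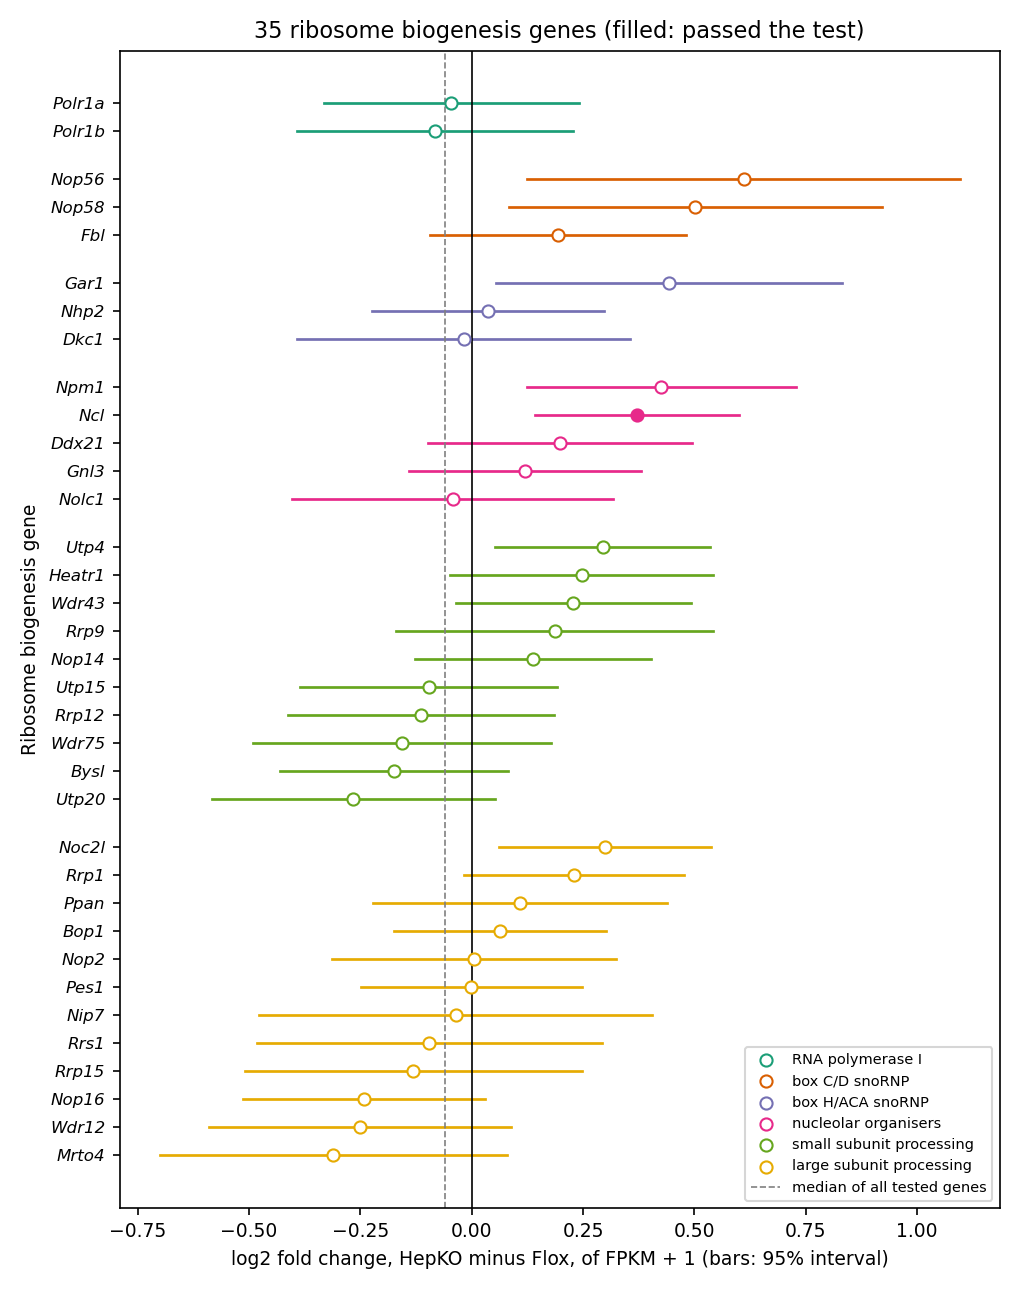
Log2 fold change (HepKO minus Flox, of FPKM + 1) of the 35 ribosome biogenesis genes with 95% limma intervals, grouped and coloured by role; the filled point is Ncl, the gene that passed, and the dashed line is the median of all tested genes at -0.06. Values run from -0.31 (Mrto4) to 0.61 (Nop56), and most intervals cross 0.

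Taken by size, 33 of the 35 biogenesis genes had an absolute log2 fold change under 0.5, and Nop56 and Nop58 were above it. The 95% interval lay between -1 and 1 for 34 of 35 genes, Nop56 being the exception with an upper bound of 1.10, and between -0.5 and 0.5 for 21 of 35. The lower bound for Myc, 2.08, was above the highest upper bound of any of them. Every HepKO library was above every Flox library in 9 of the 35 genes and below in 3, where the shares of all tested genes were 17.2% and 25.2%. By unadjusted p under 0.05, 7 of the 35 passed, all higher in HepKO: Nop56, Nop58, Gar1, Ncl, Npm1, Utp4 and Noc2l. Over all tested genes 35.7% passed at that level and 14.8% were higher, so the share of the 35 genes was below the first and above the second value, and neither difference was tested. Median-ratio rescaling called those 7 genes as higher, 7 of 35 where 11.3% of all tested genes were called higher, and trimmed-total rescaling called 3 of 35, beside 10.6%. Full-total rescaling called 0 (4 by unadjusted p under 0.05, 1 of them lower), where 7.99% of all tested genes were called higher. Each of the 6 fits without 1 library also called 0 (2 to 11 by unadjusted p). In those fits 5.29% to 8.12% of all tested genes were called higher, a smaller share than in the main fit. In the authors' deposited table, Nop56, Nop58 and Npm1 have a q-value under 0.05. The share of all genes at that level was not counted, so no background stands beside them.

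Libraries of the same group differed in the level of the 35 genes as a set. Their FPKM summed to 392, 432 and 462 in Flox replicates 1 to 3 and to 461, 474 and 517 in HepKO replicates 1 to 3, so that Flox replicate 3 and HepKO replicate 1 were level. Flox replicate 1 was the lowest Flox library for 30 of the 35 genes, beside 40.7% of all tested genes, and HepKO replicate 3 was the highest HepKO library for 25 of 35, beside 48.1%. Myc went the other way: within Flox it was highest in replicate 1, and within HepKO it was lowest in replicate 3. After median-ratio rescaling Flox replicate 1 was still the lowest for 29 of 35 genes (36.3% of all tested genes), whereas HepKO replicate 3 was the highest for 16 of 35 (34.4%). On that scale the sums were 387, 424 and 434 in Flox and 502, 489 and 506 in HepKO libraries, which no longer touch. With 3 libraries a group these orders are descriptions, and the deposited values of HepKO replicate 1 carry its larger mitochondrial share.

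**Figure D3:**
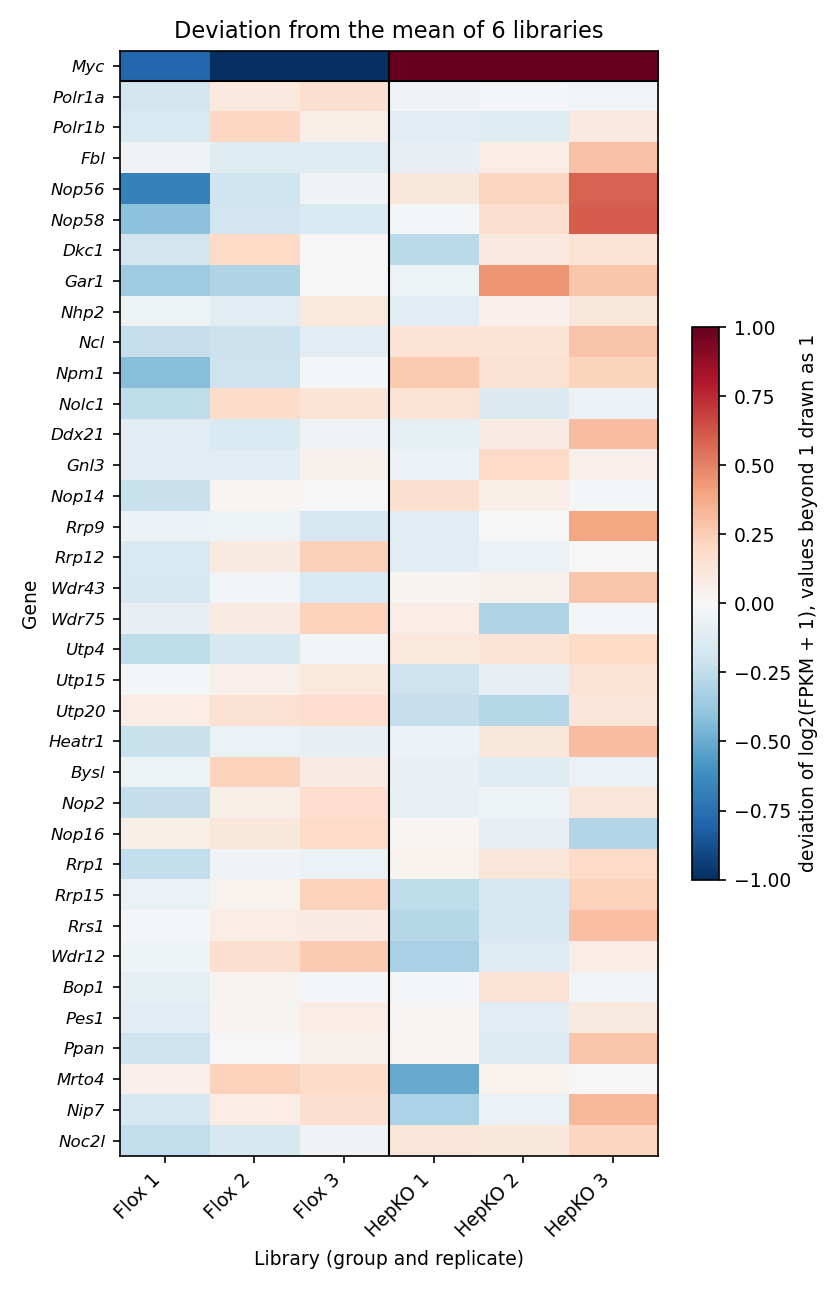
Deviation of log2(FPKM + 1) from the mean over 6 libraries, for Myc (top row) and the 35 ribosome biogenesis genes (rows) in each library (columns); red is above and blue below the mean, and values beyond 1 are drawn as 1. Myc splits the groups, while most biogenesis rows are pale, mostly lowest within Flox in replicate 1 and highest within HepKO in replicate 3.

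Further ribosome biogenesis genes were listed by role. Of 90 other factors, all tested, 5 rose and 3 fell, beside 9.33% and 11.0% of all tested genes. By unadjusted limma p under 0.05 in either direction 20 of 90 passed, beside 35.7%. Their median log2 fold change was -0.04, beside -0.06 for all tested genes. Nle1, which acts late on the large subunit, rose from 1.07 to 2.39 FPKM (log2 fold change 0.73, limma adjusted p = 0.027), and Gnl2, a GTPase of the same pathway, rose from 15.3 to 21.4 FPKM (0.46, adjusted p = 0.031); Nle1 was called in 3 and Gnl2 in 1 of 6 fits without 1 library. Of 9 other snoRNP proteins 2 rose, both assembly factors: Naf1 from 1.88 to 3.00 FPKM (log2 fold change 0.48) and Nufip1 from 2.94 to 4.60 FPKM (0.51), called in 1 and 0 of 6 such fits. These 4 rises were each lost with the replicate block (adjusted p 0.057 to 0.075), Gnl2, Naf1 and Nufip1 also after full-total rescaling (0.056 to 0.073), and Nle1, Naf1 and Nufip1 without a filter (0.073 to 0.092). Small subunit factors gave 2 falls and 0 rises of 30 (6 by unadjusted p under 0.05 in either direction). Utp23 fell from 3.59 to 2.00 FPKM and Imp3 from 39.7 to 28.6 FPKM (log2 fold changes -0.62 and -0.47), called in 2 and 0 of 6 such fits. Utp23 was lost without a filter (0.11), at a pseudocount of 0.1 (0.050) and after trimmed-total rescaling (0.051), and Imp3 without a filter, with the block and after median-ratio and full-total rescaling (0.051 to 0.093). In the polymerase I machinery Taf1d rose from 2.78 to 4.67 FPKM and Taf1a fell from 6.74 to 4.96 FPKM, both subunits of the SL1 initiation factor, called in 2 and 0 of 6 such fits. Both were lost without a filter and with the block (Taf1d 0.056 and 0.055, Taf1a 0.075 and 0.11), and Taf1a also after median-ratio and trimmed-total rescaling (0.11 and 0.10). Taf1d hosts small RNA genes that overlap it on the same strand, so its level is uncertain. The most abundant genes of these lists did not pass: Polr1d read 15.7 and 15.4 FPKM, Nop10 48.9 and 40.1, Rcl1 53.5 and 64.8, and Eif6, an anti-association factor of the large subunit, 63.8 and 76.3 FPKM in Flox and HepKO libraries.

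Of 79 cytosolic ribosomal protein genes, 1 rose and 0 fell by limma. By unadjusted p under 0.05, 7 passed, beside 35.7% of all tested genes. On the deposited scale 53 had a positive and 26 a negative log2 fold change, with a median of 0.10. Over all tested genes 5520 were positive and 7192 negative, with a median of -0.06, and the difference was not tested. Rps24 rose from 29.1 to 39.4 FPKM (log2 fold change 0.42, adjusted p = 0.038), a call that held in 1 of 6 fits without 1 library and was lost without a filter (0.056), with the replicate block (0.10) and after full-total rescaling (0.061). Rplp1, the most abundant, read 704 and 775 FPKM (adjusted p = 0.57). The summed level was 11360 to 12357 FPKM in Flox libraries and 10927.1, 13781.5 and 14071.5 FPKM in HepKO replicates 1 to 3. HepKO replicate 1 was the lowest of 6, and the other HepKO libraries lay above every Flox library. Rpl29 had the largest log2 fold change of the list, 1.55: it read 6.34 FPKM in Flox replicate 2 against 91.9 and 98.5 FPKM in the other Flox libraries, and it did not pass (adjusted p = 0.29). Ribosomal protein genes have many near-identical pseudogene copies, so single-gene values are uncertain.

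MYC targets outside the ribosome pathway were listed as well. Of 30 such genes, 4 rose and 1 fell, beside 9.33% and 11.0% of all tested genes. The median log2 fold change was -0.0016. By unadjusted limma p under 0.05 in either direction 11 of 30 passed, beside 35.7% of all tested genes. Odc1, the rate-limiting enzyme of polyamine synthesis and a direct MYC target, read 26.7, 26.8 and 35.4 FPKM in Flox and 70.1, 74.1 and 64.8 FPKM in HepKO libraries, with the groups far apart (2.35-fold, log2 fold change 1.22, SE 0.14, limma adjusted p = 0.0024). Slc7a5, the amino acid transporter LAT1, rose from 0.893 to 2.26 FPKM (log2 fold change 0.78, adjusted p = 0.0052), and Shmt2, a mitochondrial serine hydroxymethyltransferase, from 31.1 to 51.3 FPKM (0.70, adjusted p = 0.013). Odc1 and Slc7a5 passed in all 15 alternatives, and Shmt2 was lost without Flox replicate 3 (0.050) or HepKO replicate 2 (0.057). The other rise was that of Ccnd2 (0.50), a cyclin, and the fall that of Paics (-0.61), a purine synthesis enzyme; both were named after their values were seen. Paics passed in all 15 alternatives and Ccnd2 in 5 of them (without Flox replicate 2 alone among the fits that left out a library). Ldha, the most abundant gene of the list, read 520 and 640 FPKM in Flox and HepKO libraries (adjusted p = 0.10, and 0.032 and 0.033 under 2 rescalings).

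Growth arrest and cell cycle genes were measured in the same libraries, where 9.33% of all tested genes were called higher and 11.0% lower. Of 11 genes known as p53 targets, 10 were tested, 6 rose and 0 fell, with a median log2 fold change of 0.79: Btg2, an antiproliferative gene and the most abundant of the list, rose 14.5-fold from 7.41 to 108 FPKM, Plk2 5.55-fold and Gdf15 4.72-fold (limma adjusted p = 0.00044, 0.00036 and 0.0037). Several of these respond to stress pathways other than p53 as well. Of 25 proliferation genes only 14 reached the level for a test, and 1 rose and 2 fell. Ccnd1, the cyclin of the G1 phase, fell from 2.74, 7.89 and 8.89 FPKM to 1.46, 1.29 and 1.19 FPKM (log2 fold change -1.58, adjusted p = 0.025). Flox replicate 1, the Flox library with the most Myc, was the closest to HepKO in Ccnd1, and leaving it out gave a log2 fold change of -2.02 (adjusted p = 0.0010), whereas the call was lost in the other 5 such fits (0.062 to 0.082), without a filter (0.067) and with the replicate block (0.051). Rrm2, a ribonucleotide reductase subunit, rose 9.26-fold to 4.92 FPKM, and Tk1, thymidine kinase, fell 5.35-fold to 0.471 FPKM (adjusted p = 0.00057 and 0.0084), although Tk1 overlaps other expressed genes on the opposite strand. Pcna, the most abundant, read 23.0 and 24.2 FPKM (adjusted p = 0.83), and Mki67, which marks cycling cells, was below 0.1 FPKM in all 6 libraries.

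**Figure D4:**
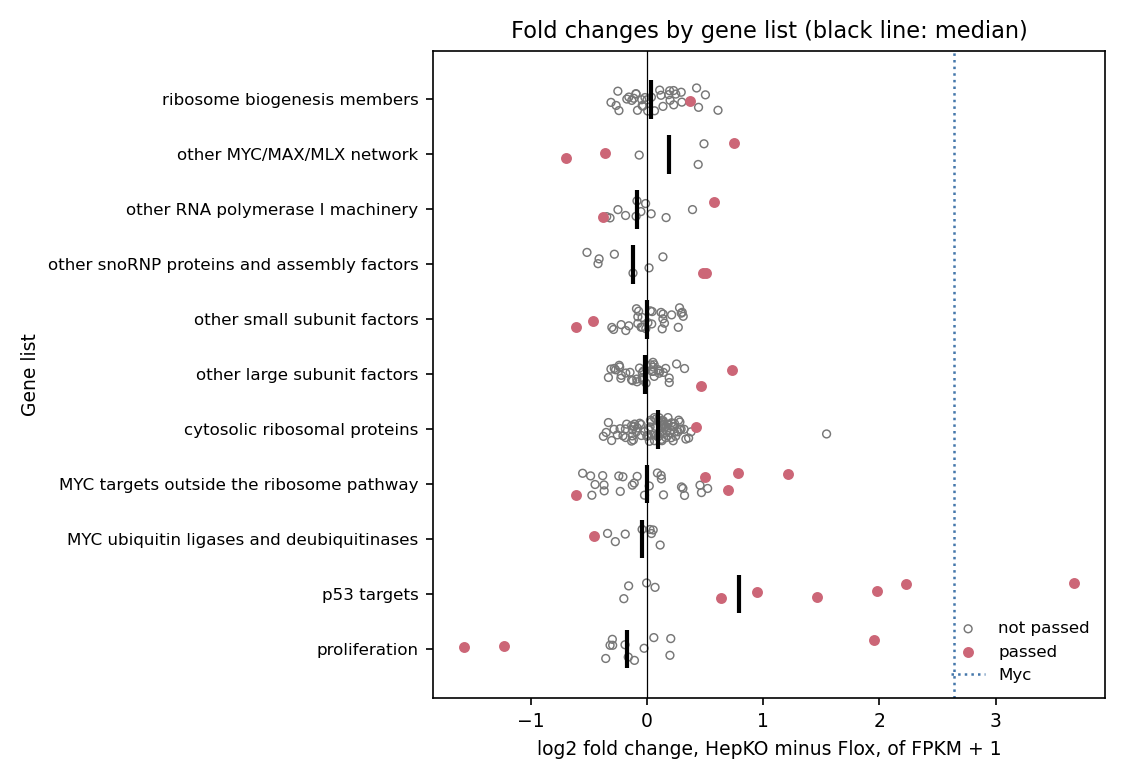
Log2 fold changes (HepKO minus Flox, of FPKM + 1) of the tested genes in each list, with 1 point a gene, filled where the gene passed; vertical black lines are list medians and the dotted line marks Myc at 2.64. The ribosome lists cluster around 0, and the p53 target list has a median of 0.79.

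Markers of other cell types differed between the same libraries. Their counts stand beside 9.33% of all tested genes called higher and 11.0% called lower. Of 11 neutrophil markers in the table, 9 were tested and 9 rose, and their summed level was 10.6 to 20.5 FPKM in Flox and 138 to 162 FPKM in HepKO libraries; Ly6g and Ltf were at 0 in every Flox library. Of 12 monocyte and macrophage markers, 9 were tested, 5 rose and 1 fell (sums 92.0 to 118 and 150 to 184 FPKM). Of 6 erythroid markers, 5 were tested and 4 rose (132 to 234 and 551 to 974 FPKM). Rises were 1 of 8 for Kupffer cell, 3 of 8 (with 1 fall) for sinusoidal endothelial, 2 of 8 for stellate cell and fibroblast, 2 of 5 for cholangiocyte and 1 of 1 for B cell markers tested, and T and NK cell markers, none of them tested, summed to at most 1.57 FPKM in any library. Of 10 hepatocyte markers, 1 rose and 2 fell: Fgb rose, and Hnf4a and Cps1 fell. Fgb and Cps1 passed in all 15 alternatives, and Hnf4a was lost with the replicate block (0.077) and in 5 of 6 fits without 1 library (0.053 to 0.097). The part of these cells in the level of Myc or of the biogenesis genes was not tested.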

How the data were processed

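The authors deposited 1 table with the FPKM of 28476 genes in 6 libraries, per the file headers. Tools listed without roles in the submitters' processing notes are StringTie 1.3.4d, HISAT2 2.0.4, edgeR, DESeq2 and cutadapt 1.9; the genome build and the test behind the deposited q-value column are not given in the sources used here. Gene coordinates are as deposited: 24678 genes, and 34 of the 40 members, have the same coordinates in GENCODE M21, so they are given as GRCm38. Library preparation selected poly(A) RNA and used dUTP, per the labels' protocols; whether counting used strand is not stated.

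For 12712 genes whose mean reached 0.5 FPKM, limma 3.58.1 (R 4.3.3) fitted genotype alone to log2(FPKM + 1) with a variance trend, two-sided, adjusted by Benjamini-Hochberg over all of them at a threshold of 0.05. This scale understates changes of low genes. Folds are ratios of mean FPKM. No count test suits FPKM, and depth is unknown. Tables, motif searches and plots used Python 3.11.15, pandas 2.3.3 and matplotlib 3.10.9; promoter sequences are from RefSeq.

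The members and the lists were chosen with earlier results of these data known. Values in every library were to be printed for the MYC network, Nedd4, the most abundant member of each role group and up to 3 called members of it, and from each other list the 3 largest called changes and the most abundant gene; other genes were named after their values were seen. For printing promoters, the 30 bases around each E-box and the called genes without one were added after seeing the matches. Alternatives were 2 pseudocounts, 2 filters, 3 rescalings, no variance trend, the replicate number as a block and leaving out each library.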

Additional observations from a re-analysis of the deposited data

How the results depend on the processing

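In 15 alternatives no called gene named here changed direction, and 11 members that had not passed changed sign in at least 1. Myc passed in all 15, with log2 fold changes of 2.49 to 2.91. Of the 40 members, 3 were called higher: this became 9 after median-ratio rescaling and 5 after trimmed-total rescaling, and it ranged from 1 to 2 without 1 library; the cause was not tested. Members called lower were 0 as reported and 0 in each of the 15 alternatives. The median log2 fold change of the members was 0.06 and ranged from 0.0094 to 0.15. The 2583 genes called in all became 1551 with the replicate block and 1281 to 2257 without 1 library, where fewer samples were fitted; without Flox replicate 2, Flox replicate 3, HepKO replicate 1 and HepKO replicate 2 they were 1331, 1483, 1616 and 1281. The replicate numbers showed no sign of pairing: deviations of same-numbered libraries correlated at 0.0029, 0.0021 and -0.026. Those of unlike-numbered libraries ran from -0.046 to 0.0495. A pairing that touches few genes would not show in these values. With the block Ncl was lost and Nop56 gained (adjusted p = 0.082 and 0.045), and Myc held (0.0096). Rescaling moved the median of all tested genes from -0.06 to -0.10, -0.02 or 0.0037, less than the changes called here. Calls near the threshold still changed with it, as that of Ncl, which was lost after full-total rescaling. With 3 libraries a group, the 95% interval of a biogenesis gene reached typically 0.30 to either side, which limits how small a change can be told from 0.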
